A study of Mus musculus with 4 samples.

Results

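The genes described here are Fhl2, the kinase genes Hipk2, Hipk1 and Hipk3, and the p53 axis genes Trp53, Mdm2 and Ccng1, in a mouse Th1 T cell clone at rest and in anergy. They were taken by symbol: every probe set that the array's annotation gives to a single gene among these 7 was used. This gave 6 of 12488 probe sets, 1 each for Fhl2 (100986_at), Hipk2 (103833_at), Hipk1 (103262_at), Hipk3 (103233_at), Mdm2 (98110_at) and Ccng1 (160127_at). The expression of Trp53 was not analysed here, and only its promoter window is described. Fhl2 and Hipk2 were singled out because they stood among the largest differences between anergic and control cells in these same arrays, so the values of that contrast are given as a description of all 6 genes, with no p-value.

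Th1 cells are the CD4 helper T cells that secrete interferon gamma, and a clone descends from a single cell. Control arrays 1 and 2 hold RNA of the normal, quiescent clone, and anergic arrays 1 and 2 hold RNA of the clone after plate-bound antibody to the receptor-associated complex CD3 had made it unresponsive. The study asked which genes are higher in anergy. Neither the mouse strain, the length of the treatment, the rest after it, nor whether both arrays of a group stem from different cultures is given in the sources used here, so every spread below is a spread between arrays and may be technical.

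FHL2 is a protein built from LIM domains, zinc-binding modules that hold other proteins. It is best known from heart and muscle, where it acts as a cofactor of transcription factors and restrains calcineurin and NFAT. HIPK2 is a nuclear serine/threonine kinase that phosphorylates p53 after severe DNA damage, and FHL2 is known to bind it. HIPK1 and HIPK3 are its closest relatives. MDM2 is the ubiquitin ligase that marks p53 for degradation and is itself made from a p53 target gene, as is cyclin G1, the product of Ccng1, which recruits the phosphatase PP2A to MDM2.

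Promoter windows of all 7 genes were taken from RefSeq (GRCm38.p6), each reaching from 250 bases before a transcription start to 50 after it, 10 windows in all. The 2 starts of Fhl2 and the first of Hipk2 are shown because these genes had the large differences. Capitals mark matches on either strand to any of 6 motifs: the CArG box bound by serum response factor (SRF), the MEF2 site, the p53 half-site, the AP-1 site TGANTCA, the Egr site GCGNGGGCG and the NFAT site TGGAAA. All 3 windows lie on the minus strand and read 5′ to 3′.
Fhl2, chr1:43196712-43197011: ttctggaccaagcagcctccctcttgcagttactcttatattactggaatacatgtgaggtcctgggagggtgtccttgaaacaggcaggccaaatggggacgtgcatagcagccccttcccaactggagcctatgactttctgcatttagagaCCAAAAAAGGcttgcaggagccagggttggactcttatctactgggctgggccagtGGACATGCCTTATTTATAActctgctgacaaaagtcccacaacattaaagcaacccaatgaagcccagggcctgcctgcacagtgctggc
Fhl2, chr1:43163912-43164211: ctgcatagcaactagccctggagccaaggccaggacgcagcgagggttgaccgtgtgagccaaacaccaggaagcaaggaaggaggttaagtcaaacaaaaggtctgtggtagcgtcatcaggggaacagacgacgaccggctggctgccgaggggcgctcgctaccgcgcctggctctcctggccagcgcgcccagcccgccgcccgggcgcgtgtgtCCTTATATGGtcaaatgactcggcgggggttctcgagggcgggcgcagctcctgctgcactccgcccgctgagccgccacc
Hipk2, chr6:38876141-38876440: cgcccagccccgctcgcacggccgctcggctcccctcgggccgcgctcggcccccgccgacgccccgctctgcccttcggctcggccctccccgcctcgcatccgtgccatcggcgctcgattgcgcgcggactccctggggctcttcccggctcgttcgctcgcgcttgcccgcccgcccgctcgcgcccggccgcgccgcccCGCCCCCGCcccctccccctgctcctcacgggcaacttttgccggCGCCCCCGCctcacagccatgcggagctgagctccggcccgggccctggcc

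Each window of Fhl2 held a CArG box, the binding sequence of SRF, a factor of which Fhl2 is a known target gene. In the first window the match ccaaaaaagg starts 96 bases before the transcription start. In the second the match ccttatatgg starts 31 bases before it. A CArG box was present in 1.63% of 32851 windows of the same length over all genes and in no other window of the 7 genes. The first Fhl2 window also held a p53 half-site, whose last base is the first base of a MEF2 site, and these motifs were present in 8.36% and 3.19% of all windows. The Hipk2 window was 80.7% G and C, against a median of 52.7% over all windows, and held 2 Egr sites, a motif of such GC-rich sequence that 5.55% of all windows carried. The second Hipk2 window and those of Hipk1 and Hipk3 held none of the 6 motifs. Single p53 half-sites also stood in the windows of Mdm2 (gaacttgcct, from 186 bases before the start), Ccng1 (gggcaagcct, from 185 bases before it) and Trp53 (ggacttgccc, from 75 bases before it). The Trp53 window also held an NFAT site (tttcca, from 210 bases before the start), a motif present in 21.4% of all windows. The motifs were chosen with the sequences in view, and a match describes letters only.

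The arrays were on a common scale, with a trimmed mean of 500.3 on each and medians between 134 and 191. Spike-in controls set control array 2 apart: the geometric mean of 9 bacterial probe sets was 1972 there and between 870 and 1014 on the other arrays. Each of the 6 genes with a probe set is therefore also given without that array, as are some of the list genes below. Of 9 T cell markers, 7 were at 2068.3 or above on all arrays, Cd247 was at 262.5 to 353.1, and Cd5 lay below the filter on dim values (the 40th percentile of mean log2 values), at 19.8 and 71.9 in control and 130.5 and 118.3 in anergic cells. The summed level of the 9 was 53149 and 40586 on the control arrays and 45110 and 39665 on the anergic arrays, and limma called 0 of the 8 tested, with 2 at an unadjusted p under 0.05.

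Fhl2 was low in control cells and high in anergic cells. Its intensity was 173.9 and 254.8 on control arrays 1 and 2, and 2782 and 2769.9 on anergic arrays 1 and 2. Both anergic arrays lay far above both control arrays and differed by only 0.0062 on the log2 scale, while the control arrays differed by 0.48. The group means were 214 ± 57.2 and 2776 ± 8.6 (SD, n = 2 each). On the log2(intensity + 29.15) scale used for all differences, which understates changes of dim genes, the difference was 3.55 ± 0.28 (SE), or 11.7-fold. That was the 10th highest of 7453 probe sets tested. The difference was 3.79 between the arrays numbered 1 and 3.30 between those numbered 2.

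Hipk2 was close to background in control cells and clearly measured in anergic cells. Its intensity was 62 and 45.4 on control arrays 1 and 2, and 768.1 and 800.7 on anergic arrays 1 and 2. The groups did not overlap, and the anergic arrays were within 1.04-fold of each other. The means were 53.7 ± 11.7 and 784 ± 23.1 (SD, n = 2 each), with a log2 difference of 3.30 ± 0.35 (SE) that ranked 12th from the highest. Since the control level lay near the pseudocount of 29.15, the size of the difference depends on it: it was 3.86 with a pseudocount of 1 and 2.14 with one of 161, the median intensity.

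**Figure D1:**
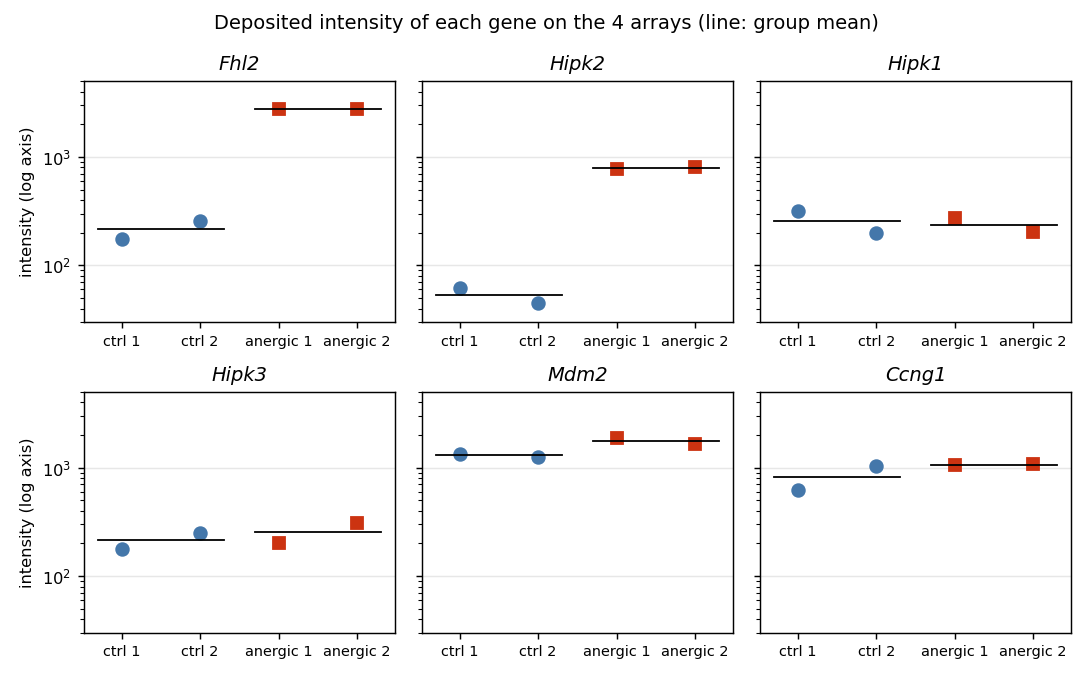
Deposited intensity (log axis) of each of the 6 genes on control arrays 1 and 2 (circles) and anergic arrays 1 and 2 (squares), with lines at the group means. Fhl2 and Hipk2 lie at 768.1 or above on both anergic arrays and at 254.8 or below on both control arrays, while the arrays of Hipk1 and Hipk3 overlap.

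The arrays of the Hipk2 relatives overlapped between the groups. Hipk1, whose product likewise phosphorylates transcription factors and p53, was at 319.6 and 197.4 on the control arrays and at 270.5 and 203 on the anergic arrays. The log2 difference was -0.09 ± 0.38 (SE). Hipk3, a kinase known to interact with the death receptor Fas, was at 178.3 and 247.6 on the control arrays and at 201.1 and 311.3 on the anergic arrays. Its difference was 0.22 ± 0.38 (SE). For both genes the arrays numbered 1 and 2 of a single group were further apart (by 0.37 to 0.62 on the log2 scale) than the group means. The difference between Hipk2 and its relatives was not tested, because Hipk2 was chosen for its own.

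Mdm2 was bright in both groups. Its intensity was 1334.6 and 1249.5 on control arrays 1 and 2, and 1865.5 and 1664.5 on anergic arrays 1 and 2. The groups did not overlap, and the ratio of anergic to control was 1.40 in the pair numbered 1 and 1.33 in the pair numbered 2. The log2 difference was 0.44 ± 0.23 (SE), which 86.8% of the tested probe sets did not reach.

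The control arrays disagreed on Ccng1. It was at 616.2 and 1025.3 on control arrays 1 and 2 and at 1055.5 and 1077.5 on anergic arrays 1 and 2. Anergic array 2 was only 1.05-fold above control array 2, and anergic array 1 lay between them. The log2 difference of 0.41 ± 0.30 (SE) became 0.06 without control array 1 and 0.76 without control array 2.

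Across the 6 genes, limma with Benjamini-Hochberg adjustment called Fhl2 and Hipk2 higher, 0 lower and 4 not, where 0.912% of all tested probe sets were called higher and 0.429% lower. Nothing is read from this count, since Fhl2 and Hipk2 were chosen from the same contrast. In 4 of the 6 genes both anergic arrays were above both control arrays, as in 16.8% of tested probe sets. Fhl2 and Hipk2 are among the 4, and Ccng1 is there only by 1055.5 on anergic array 1 against 1025.3 on control array 2. The median difference of the 6 was 0.42, against -0.09 for all. Nothing is read from these values either, for the same reason. Without control array 2 the differences were 3.79 for Fhl2, 3.16 for Hipk2, -0.40 for Hipk1, 0.43 for Hipk3 and 0.39 for Mdm2.

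**Figure D2:**
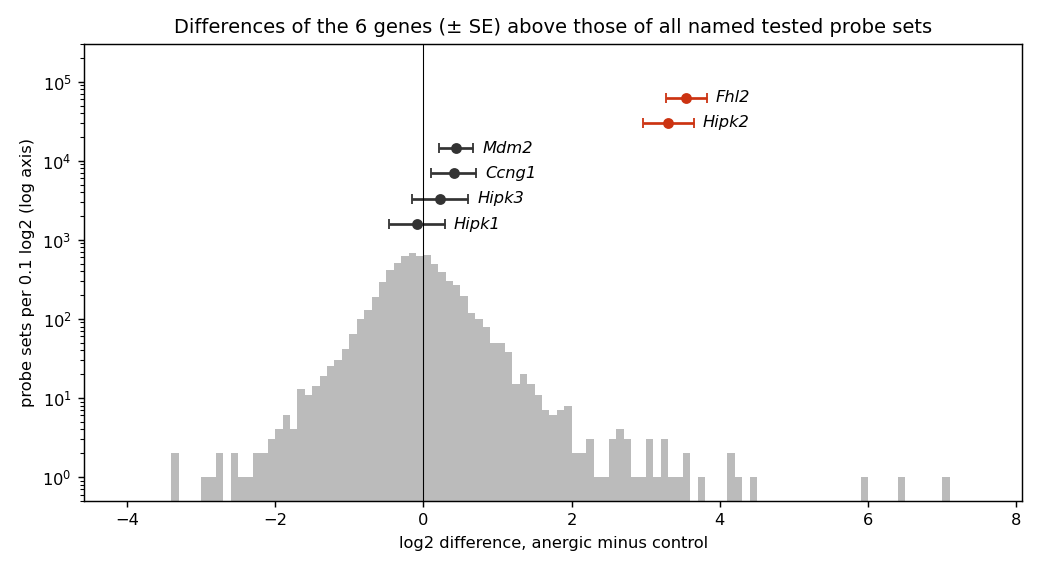
Log2 difference between anergic and control cells (points, with SE bars) of the 6 genes, placed above the distribution of the differences of all 6668 tested probe sets with 1 gene symbol (grey, log axis; the height of the points carries no value). Fhl2 at 3.55 and Hipk2 at 3.30 lie in the far right tail, and the other 4 between -0.09 and 0.44 lie within the bulk.

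**Figure D3:**
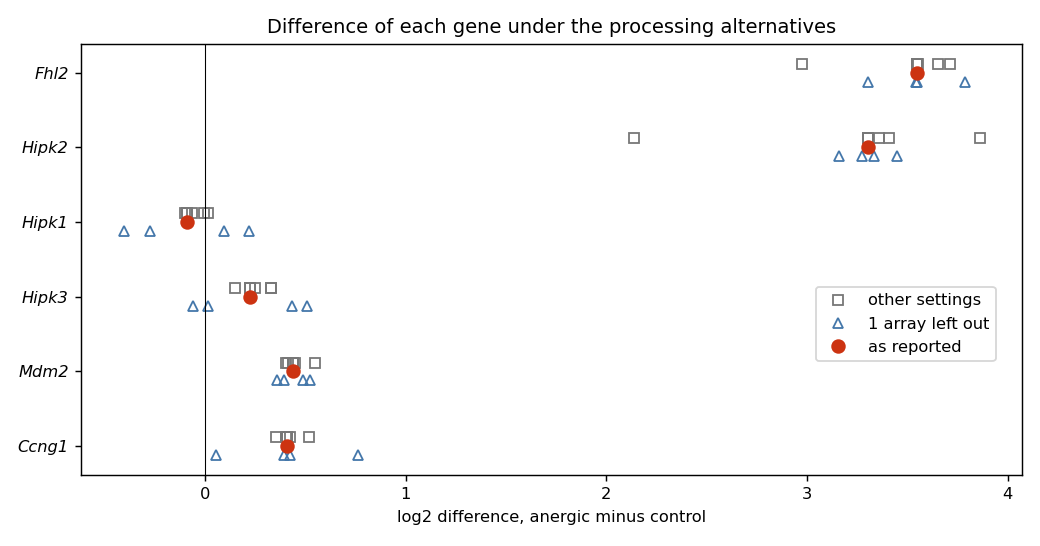
Log2 difference of each gene as reported (filled circles), with 1 array left out (triangles) and under the other processing settings (squares). Fhl2 stays between 2.98 and 3.79 and Hipk2 between 2.14 and 3.86, while the differences of Hipk1 and Hipk3 fall on both sides of 0.

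Among 5583 genes, taken with their brightest probe set, those whose profile over the 4 arrays was most like that of Fhl2 were found by the Euclidean distance of log2 values centred on each gene's mean. The adhesion molecule gene F11r was closest, at a distance of 0.25, with 91.7 and 129.7 on the control arrays and 1964.2 and 1673.8 on the anergic arrays. Hipk2 itself was the second closest gene, at 0.60. Nrgn, encoding the calmodulin-binding protein neurogranin, Tnfrsf8, encoding the TNF receptor family member CD30, the granin gene Scg2 and Pdzk1ip1 followed at distances of 0.60 to 0.73. The median distance of all other genes was 3.68, and Mdm2, Ccng1, Hipk3 and Hipk1 lay at 3.13 to 3.73.

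Hipk2 was most like Tnfrsf8, at a distance of 0.45, which was at 53.8 and 62.3 in control cells and at 604 and 755.9 in anergic cells. The chemokine gene Ccl3, the aminoacylase gene Acy3, the adenylate kinase gene Ak1 and the semaphorin gene Sema7a came next, at 0.53 to 0.59. Sema7a differed by 3.22 at its brightest probe set but by 0.63 at a second probe set above the filter. Fhl2 was the sixth, at 0.60. With 4 arrays in 2 groups such a distance mostly ranks genes by the size of the difference between groups, and it carries no test.

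**Figure D4:**
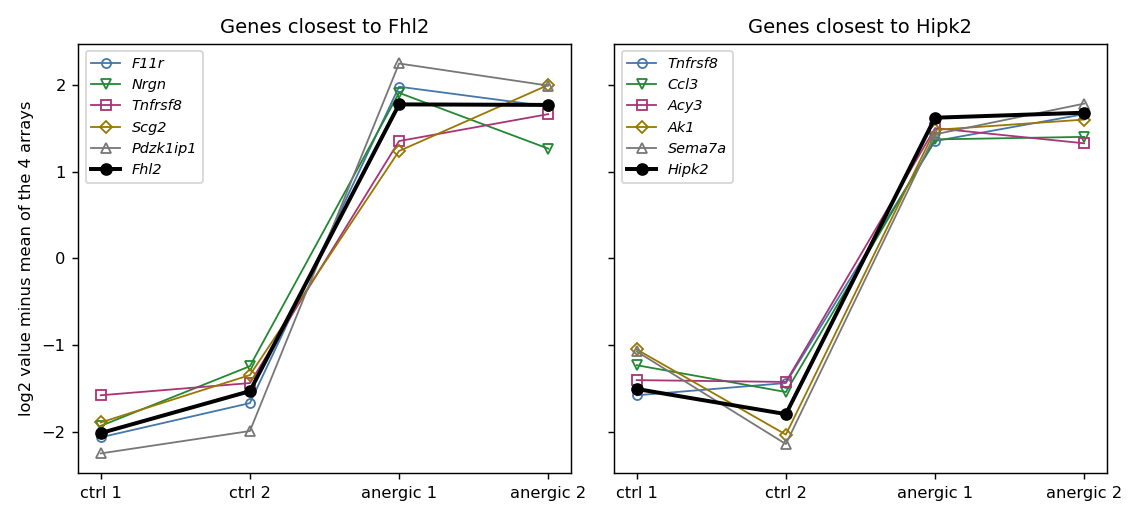
Log2 values centred on each gene's mean over the 4 arrays, for Fhl2 and Hipk2 (thick lines) and the 5 genes closest to each. Each neighbour, at its brightest probe set, lies at a distance between 0.25 and 0.73 of its gene. By this choice its values are above its own mean on both anergic arrays and below it on both control arrays.

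The genes around these 7 were taken as 9 lists of known relatives, partners, regulators and targets, chosen with results of these arrays known. Of 125 list genes above the filter on dim values, each counted once, limma called 1 higher and 1 lower (1.6%); the lower one, Dap, was listed with its fall in these arrays known, so nothing is read from it. Of all 5583 genes, 1.04% were called higher and 0.519% lower. The median difference of the 125 was 0.02, against -0.09 for all genes, and 19 had an unadjusted p under 0.05. The share of all genes with such a p is not given here, so nothing is read from this count or those of single lists. Without control array 2, when limma called 208 probe sets higher and 136 lower over the whole array, 4 of 123 list genes were called higher and 6 lower. Adjusted p-values below come from limma with Benjamini-Hochberg adjustment over all 7453 probe sets, or over 12422 where no filter was used. With 1 array left out, 1 group holds a single array, the residual spread comes from the other group alone, and the lone array is assumed to vary like it. From such fits only the differences are given for single genes.

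Of the 28 LIM domain genes listed beside Fhl2, 16 were above the filter. Limma called 0 of them, with 3 at an unadjusted p under 0.05 and a median of -0.07. Fhl1, the LIM-only relative known from skeletal muscle, was at 196.9 and 286.6 in control and 132.4 and 396.3 in anergic cells, a difference of -0.03 ± 0.50 (SE, adjusted p = 0.99). Crip1, a small cysteine-rich LIM protein gene of lymphoid and gut cells, was at 3351.2 and 2443.2 in control and 1441.7 and 1179.7 in anergic cells. Its difference of -1.12 ± 0.26 (SE) had an adjusted p of 0.106. Lasp1, which encodes an actin-binding LIM and SH3 protein, was at 2126.5 and 2069.3 in control and 3312.1 and 3974.8 in anergic cells, a difference of 0.78 ± 0.23 (SE, adjusted p = 0.199). The arrays of Crip1 and Lasp1 did not overlap between groups, in opposite directions. With 1 array left out, the difference of Crip1 was -1.34 without control array 2 and -0.89 to -1.26 without any 1 of the other 3.

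Of 21 genes for SRF, its cofactors and its known targets, 11 were above the filter and 0 were called in limma, with 3 at an unadjusted p under 0.05 and a median of 0.02. Junb, an AP-1 subunit gene, was at 1472.3 and 607.7 in control and 5020.6 and 1807.1 in anergic cells, a difference of 1.64 ± 0.52 (SE, adjusted p = 0.258). The difference of Junb was 2.26 without control array 1, 1.02 without control array 2, 2.37 without anergic array 2 and 0.91 without anergic array 1. Fos, another AP-1 gene and a classic SRF target, was at 396.1 and 661.1 in control and 177.8 and 262.6 in anergic cells, a difference of -1.14 ± 0.37 (SE, adjusted p = 0.264). Fosb, also an AP-1 gene, was at 2722.5 and 1399.5 in control and 5964.4 and 2727.3 in anergic cells. Its difference was 1.04 ± 0.42 (SE, adjusted p = 0.398). Egr1, also a serum-response gene, differed by -0.65 ± 0.42 (SE, adjusted p = 0.647), with arrays that overlapped between groups. The immediate early SRF targets thus had values of both signs. Of the smooth muscle targets of SRF, Acta2, Tagln, Cnn1 and Myl9 lay below the filter. Actg2, the smooth muscle gamma actin gene, was at 224.1 and 326.7 in control and 341.1 and 353.5 in anergic cells, a difference of 0.33 ± 0.33 (SE, adjusted p = 0.827).

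Of 20 FHL2 binding partners 10 were above the filter, and limma called 0, with 1 at an unadjusted p under 0.05 and a median of 0.12. Nfatc1, a calcium-dependent factor gene, was at 804.9 and 602.2 in control and 879.1 and 1037.6 in anergic cells, a difference of 0.44 ± 0.28 (SE, adjusted p = 0.625). Traf6, a ubiquitin ligase gene of NF-kB signalling, differed by -0.81 ± 0.31 (SE, adjusted p = 0.359). Ctnnb1, encoding beta-catenin, was at 1114.6 and 1486 in control and 1433.7 and 1423.4 in anergic cells.

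Among the kinases listed as relatives of HIPK2, 10 of 14 were above the filter and 0 were called or had an unadjusted p under 0.05 in limma. Their median difference was 0.00041. Dyrk1b, a kinase gene tied to quiescence, was at 283.8 and 417.4 in control and 183.9 and 205.3 in anergic cells, a difference of -0.74 ± 0.35 (SE, adjusted p = 0.493). Srpk2, a splicing-factor kinase gene, differed by 0.68 ± 0.41 (SE, adjusted p = 0.613). The differences of the other 8 lay between these.

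Of 32 HIPK2 partners and substrates, 20 were above the filter, and limma called 0, with 3 at an unadjusted p under 0.05 and a median of -0.09. Ski, the gene of a corepressor that HIPK2 binds, was at 2617.8 and 1752.9 in control and 842.7 and 1218.3 in anergic cells, a difference of -1.06 ± 0.30 (SE, adjusted p = 0.188). With 1 array left out the difference of Ski lay between -1.34 (without control array 2) and -0.77. Myb, whose protein HIPK2 phosphorylates, was at 300 and 321.9 in control and 1403 and 497.9 in anergic cells, a difference of 1.35 ± 0.45 (SE, adjusted p = 0.277). The anergic arrays of Myb disagreed. The difference of Myb was 1.31 without control array 1, 1.40 without control array 2, 0.63 without anergic array 1 and 2.07 without anergic array 2. The ubiquitin ligase genes Siah1a and Siah2, whose products degrade HIPK2, differed by -0.15 ± 0.34 and 0.10 ± 0.33 (SE), and the p53 coregulator genes Pml and Daxx by 0.10 ± 0.28 and -0.03 ± 0.28 (SE).

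Of 35 p53 regulators 19 were above the filter, and 0 were called or had an unadjusted p under 0.05 in limma at the brightest probe set of each gene. Their median difference was 0.15. Mdm4, the p53-binding relative of MDM2, was at 1511.2 and 2672 in control and 2621.7 and 3024.8 in anergic cells, a difference of 0.48 ± 0.30 (SE, adjusted p = 0.625). Its dimmer probe set was at 19.2 and 128 in control and 203.6 and 227.2 in anergic cells, a difference of 1.49 ± 0.60 (SE, adjusted p = 0.388). Mapk14, encoding the stress kinase p38 alpha, differed by -0.43 ± 0.22 (SE, adjusted p = 0.533), and the casein kinase gene Csnk1d by 0.35 ± 0.21 (SE, adjusted p = 0.605) at the brightest of its 4 probe sets. The other 3 probe sets of Csnk1d differed by 0.14, 0.15 and 1.25, the last at 337.2 and 366.3 in control and 1022.3 and 751.8 in anergic cells (adjusted p = 0.106). Atm, the DNA damage kinase gene, was at 352 and 491.7 in control and 629.6 and 541.2 in anergic cells.

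Of 31 p53 targets in cell cycle arrest and repair, 18 were above the filter, and limma called 0, with 5 at an unadjusted p under 0.05. They had 9 positive and 9 negative differences and a median of 0.07. Cdkn1a, the p21 inhibitor of cyclin-dependent kinases and the best known p53 target, was at 645.5 and 471.9 in control and 1327.8 and 1075.3 in anergic cells, a difference of 1.07 ± 0.28 (SE, adjusted p = 0.154). Its other probe set was at 345.4 and 323.3 in control and 761.3 and 745.2 in anergic cells, with 1.11 ± 0.28 (SE, adjusted p = 0.135). Both probe sets thus had all anergic arrays above all control arrays without passing. The first differed by 1.29 without control array 1 and by 0.86 to 1.22 without any 1 of the other 3. Plk2, a polo-like kinase gene also induced by p53, was at 4782.9 and 3020 in control and 1832.4 and 514.9 in anergic cells, a difference of -1.93 ± 0.52 (SE, adjusted p = 0.167). The difference of Plk2 was -1.60 without control array 1, -2.26 without control array 2, -2.82 without anergic array 1 and -1.04 without anergic array 2. The stress-response genes Sesn1 and Ddit4 differed by -0.80 ± 0.25 and -1.44 ± 0.52 (SE, adjusted p = 0.238 and 0.336). Gadd45a, a DNA damage gene, lay below the filter at 50.3 and 13.5 in control and 5.3 and 13 in anergic cells.

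Of 24 listed p53 targets in apoptosis and secretion, 9 were above the filter, with 1 called higher, 1 lower, 4 at an unadjusted p under 0.05 and a median of 0.09 in limma. Ctsd, the gene of the lysosomal protease cathepsin D, rose from 4899.2 and 5006.9 in control to 11381.8 and 12506.5 in anergic cells, a difference of 1.26 ± 0.21 (SE, adjusted p = 0.0297). With any 1 array left out the difference of Ctsd lay between 1.20 and 1.33. Its adjusted p was 0.0764 with no filter, 0.0701 after centring arrays on their median and 0.189 with no intensity trend. In the other settings that kept all 4 arrays it stayed under 0.05, adjusted over the probe sets or genes of each setting. Dap, an inhibitor of autophagy rather than a classic p53 target, was put on the list with its fall in these arrays known, so its values are a description. It was at 10951.3 and 11312.7 in control and 2668.3 and 2471 in anergic cells, a difference of -2.10 ± 0.21 (SE). Cav1, the caveolin gene, was at 1293.1 and 606.6 in control and 2113.1 and 1753.5 in anergic cells, a difference of 1.09 ± 0.36 (SE, adjusted p = 0.266). A second Cav1 probe set above the filter differed by -0.01. Cd82, a tetraspanin gene, was at 5692 and 4357.4 in control and 7847.2 and 7557.4 in anergic cells, a difference of 0.63 ± 0.23 (SE, adjusted p = 0.334). Perp, a p53 target of cell adhesion and death, was at 778.9 and 399 in control and 1171.7 and 537.7 in anergic cells, a difference of 0.49 ± 0.44 (SE, adjusted p = 0.775), and Fas lay below the filter.

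Of 16 cyclin G partners and PP2A subunits 12 were above the filter, and limma called 0, with 0 at an unadjusted p under 0.05 and a median of 0.06. Ccng2, the relative of Ccng1 that is induced in quiescence, was at 3489.8 and 2235 in control and 2114.1 and 1389.3 in anergic cells, a difference of -0.70 ± 0.31 (SE, adjusted p = 0.451). The difference was -1.01 without control array 2 and -0.38 to -0.99 without any 1 of the other 3. Cdk5, a kinase gene whose product binds cyclin G1, differed by 0.67 ± 0.32 (SE, adjusted p = 0.506). The PP2A regulatory subunit gene Ppp2r5c, of the class that cyclin G1 binds, differed by -0.04 ± 0.29 (SE).

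**Figure D5:**
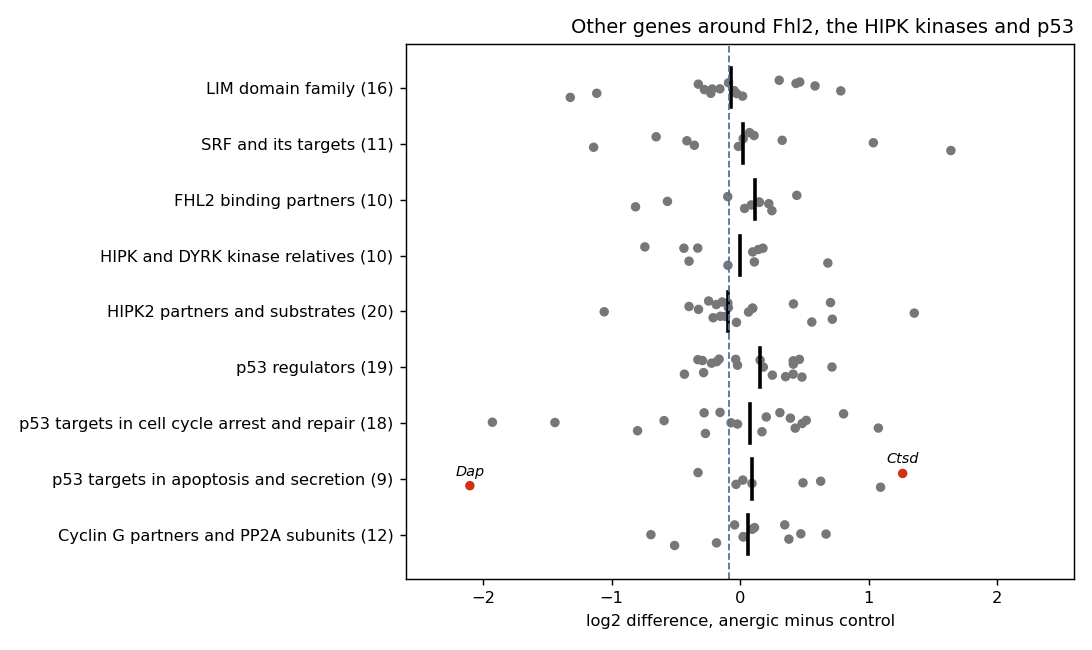
Log2 differences between anergic and control cells of the tested genes of each list (points, spread vertically for legibility; number of genes in brackets), with the list median (black bar) and the median of all 5583 genes (dashed line, -0.09). Red points mark the called genes, Ctsd at 1.26 and Dap at -2.10.

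Fhl2 is known mainly from muscle and stroma. The summed level of 12 muscle and stromal markers was 2267 and 2478 on the control arrays and 1973 and 2832 on the anergic arrays. Of the 12, 2 were higher on both anergic arrays than on both control arrays, 3 were lower and 7 overlapped. Of all tested probe sets, 16.8% were higher on both anergic arrays, and the share that was lower is not given here. Limma called 0 of the 3 markers above the filter (0 at an unadjusted p under 0.05). The collagen gene Col1a2 was the brightest, at 1242.1 and 1412.3 in control and 1015.5 and 1584.4 in anergic cells. Actc1 (cardiac actin) was at 335.6 and 422.6 in control and 473.4 and 533.7 in anergic cells, a difference of 0.39 ± 0.30 (SE, adjusted p = 0.724). Dcn (decorin, of stroma), the other one higher, was at 11.7 and 35.3 in control and 54.7 and 60.6 in anergic cells, and Col3a1, Tnni3 and Sparc were the 3 lower ones, at 95.4 or below. Myh6 (cardiac myosin) and Acta2 (smooth muscle actin) were at or below 16.7 on all arrays. Sums of 9 macrophage and dendritic cell markers were 1445 and 1849 in control and 1552 and 2119 in anergic cells. Among these markers Cd68 rose from 71 and 91.3 to 497.6 and 531.5. It passed the filter on dim values only through its anergic arrays, so its values are a description, with no p-value. The Cd68 difference of 2.31 ± 0.35 (SE) stayed between 2.17 and 2.44 with any 1 array left out. A second Cd68 probe set lay below the filter. The product of Cd68 is a lysosomal membrane protein. Adgre1 (F4/80) was also higher on both anergic arrays, at 24 and 20.2 in control and 36.4 and 36.9 in anergic cells, below the filter. Cd14 was at 764.1 and 931.9 in control and 684.4 and 858.2 in anergic cells, and Csf1r at 170.6 and 232.9 in control and 117.6 and 344.1 in anergic cells, so both overlapped. Itgam was at 33.6 or below on all arrays. Lyz2, the lysozyme gene, was at 129.1 and 73.3 in control and 11.7 and 11.4 in anergic cells. Mpeg1 was also lower on both anergic arrays, at 213.6 and 320 in control and 93.8 and 155.8 in anergic cells. Its difference of -0.95 ± 0.41 (SE) had an adjusted p of 0.441 in limma. Of the 9 macrophage and dendritic cell markers, 2 were higher on both anergic arrays, 2 were lower and 5 overlapped. With 16.8% of all tested probe sets higher in this way, nothing is read from these counts or from those of the 12 markers above. Sums of 6 B cell markers were 648 and 1050 in control and 593 and 930 in anergic cells, and none of the 4 tested passed in limma (0 at an unadjusted p under 0.05). Cd8a was at 6.2 to 18 and Cd8b1 at 9.3 to 21.9. The NK receptor gene Klrd1 was at 4303.9 to 5510.9 in both groups, while Ncr1, another NK receptor gene, was at 6.8 to 45.4. Whether other cells contributed to the levels of Fhl2 and Hipk2 was not tested.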

How the data were processed

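The authors deposited 1 linear-scale intensity per probe set and array, already scaled, as the values show: after trimming 2% at each end every array had the same mean. Their scanner software, correction of background and summary of probes are unstated in the sources used here. No detection calls were used. Array number, 2 per group, limits the precision. Names come from GEO's annotation of the platform, checked by gene ID against RefSeq (GRCm38.p6). Apart from 66 controls, 10833 of 12422 probe sets had 1 symbol.

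Intensities were transformed as log2(intensity + 29.15), the pseudocount being the median over arrays of the 20th percentile. Probe sets above the 40th percentile of mean log2 values were kept, 7453 in all, and fitted with limma 3.58.1 in R 4.3.3 (lmFit, eBayes with intensity trend, two-sided, Benjamini-Hochberg threshold 0.05), without pairing arrays by number. The fit had 2 residual and 6.17 prior degrees of freedom. An exact permutation test of these arrays cannot go below p = 0.333. A list gene was represented by its brightest tested probe set. The script was tested on simulated data. Named list genes are those called or with the smallest p in each list and a few fixed ones. Lmo2, Egr1, Fosb, Ctnnb1, Siah1a, Siah2, Pml, Daxx, Atm, Sesn1, Ddit4, Perp, Fas, Cav1, Cd82, Ppp2r5c, Actg2, Acta2, Tagln, Cnn1, Myl9 and the marker genes were added after their values were seen. The 7 genes and all lists were chosen with earlier results of these data known. Alternatives were other pseudocounts, filters, normalizations and variance models, the mean of a gene's probe sets, the array number as a block, and leaving out each array.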

Additional observations from a re-analysis of the deposited data

How the results depend on the processing

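The filter at the 60th percentile removed Hipk2, Hipk1 and Hipk3. The pseudocount moved the sizes: with 161 the difference was 2.98 for Fhl2 and 2.14 for Hipk2, and with 1 it was 3.86 for Hipk2. Leaving out 1 array gave 3.30 to 3.79 for Fhl2 and 3.16 to 3.45 for Hipk2. Over all probe sets 68 were called higher and 32 lower; there were 42 and 17 without a filter, 28 and 10 without the intensity trend, 52 and 12 after centring arrays on their median, and 26 to 208 and 17 to 136 with 1 array left out. Centring moved the median difference of all probe sets from -0.0855 to 0.0209. Of the list genes, 0 were called higher (in place of 1) without a filter, after centring and without the trend, and 0 to 5 were higher and 1 to 6 lower with 1 array left out. The cause of these changes was not tested. With the array number as a replicate block, 389 probe sets were called higher and 372 lower, and 10 list genes each way, among them Cdkn1a (1.07) and Junb (1.64) higher and Plk2 (-1.93) lower. The labels do not say that a number marks a shared culture or day. Deviations of same-numbered arrays correlated at 0.537 over probe sets, in a single pair of differences.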
